A study of Mus musculus with 44 samples.

Results

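The RNA recovered with an antibody against AUF1 on day 6 of muscle differentiation was set against the input RNA of the same day, probe by probe, on 4 AUF1 pulldown arrays and 5 input arrays. These 9 arrays were chosen by the antibody and the day in their labels, out of 44 arrays in the series. The cells were C2C12, a mouse myoblast line that fuses into myotubes when serum is withdrawn. Every group was of this 1 line, and the labels name no genetic change. The day 6 AUF1 group (4 arrays) and the day 6 IgG group (4 arrays) held RNA that came down from cleared cell lysate on beads coated with anti-AUF1 or with control IgG, after 6 days in differentiation medium with horse serum. The day 6 input group (5 arrays) held total RNA of cells differentiated for 6 days. Day 0 groups of the same kinds (4 AUF1, 4 IgG and 5 input arrays) came from cells of the growing culture, and 5 further input arrays came from day 3. The titles call the input DNA, whereas the other labels call it RNA, and it was treated as RNA. Nothing in the labels says that arrays of a group came from separate cultures, so the p-values measure the spread between arrays, which may be technical.

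AUF1, encoded by Hnrnpd, is an RNA-binding protein that recognises AU-rich elements, which are mostly found in the 3' untranslated regions of short-lived messenger RNAs. Depending on the message and the cell, it is known to speed decay, stabilise the RNA or alter its translation. In a ribonucleoprotein immunoprecipitation, an RNA bound by the protein is expected to be over-represented relative to the lysate, and the control IgG gives the RNA that comes down without the antibody's target. During differentiation of myoblasts the messages of the cell cycle are lost and those of the contractile apparatus accumulate, so the RNA against which a pulldown is read changes greatly with time. The array identifiers of the probes match no gene table used here. Probes are therefore named by identifier, and neither the identity of the day 6 cells as myotubes nor any target of AUF1 could be checked by gene.

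The AUF1 pulldown arrays detected fewer probes than the input arrays of the same day. A probe counted as detected when its deposited detection p-value was under 0.05, and the table held 25697 probes. The AUF1 arrays of experiments 1, 2, 3 and 4 detected 45.5%, 36.3%, 33.3% and 44.4% of the probes, against 48.1%, 47.5%, 48.7%, 45.9% and 44.7% on the 5 input arrays. Experiments 2, 3 and 4 stood below every input array, experiment 4 only narrowly, and experiment 1 lay within the range of input. The mean was 39.9% ± 5.99 (SD, n = 4) in AUF1 and 46.99% ± 1.65 (SD, n = 5) in input, a difference of -7.13 percentage points (exact permutation test over arrays, two-sided p = 0.0159, adjusted over 2 measures 0.0318; the smallest p the 126 arrangements allow is 0.00794). Leaving out input array 35, 38, 41 or 44 gave differences of -7.40 to -6.71 points and an exact p of 0.0571. Mean signal did not pass the same exact test, with 213 ± 63.5 intensity units in AUF1 (SD, n = 4) and 253 ± 49.0 in input (SD, n = 5; p = 0.341). The IgG arrays of day 6 detected 45.8%, 45.5%, 35.7% and 45.2%, and there too experiment 3 was the lowest.

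**Figure D1:**
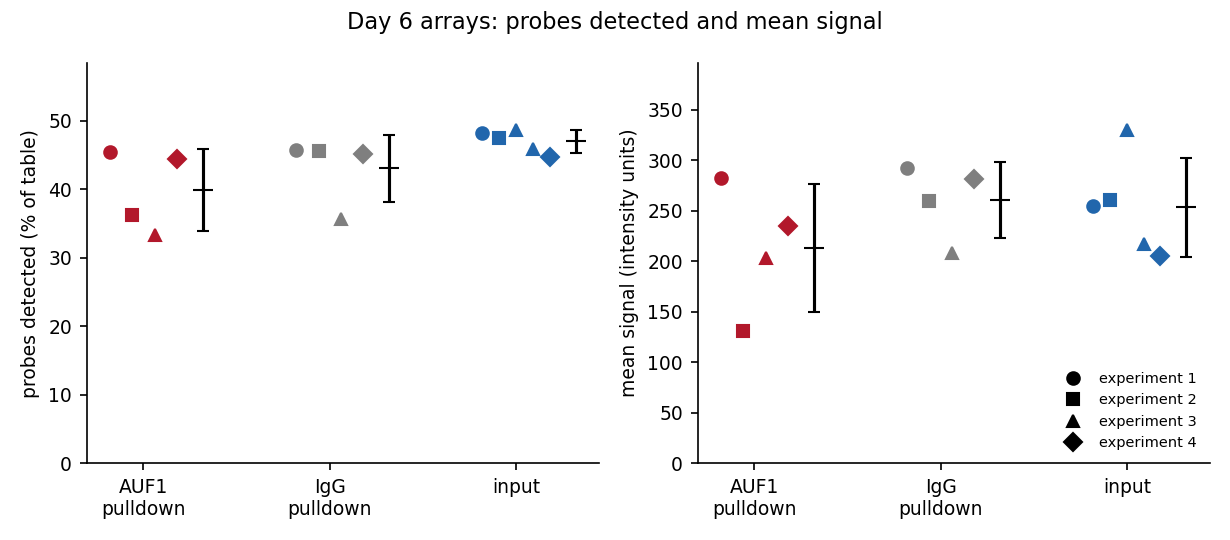
Share of the 25697 probes detected (left, percent) and mean signal (right, intensity units) on each day 6 array of the AUF1 pulldown, the IgG pulldown and input. Symbols mark the experiment number and black bars the mean ± SD of a group. The AUF1 arrays of experiments 2, 3 and 4 detected 36.3%, 33.3% and 44.4%, below all 5 input arrays, the lowest of which detected 44.7%.

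The AUF1 arrays also differed more among themselves. Across the 14005 probes tested, the AUF1 arrays correlated with each other at 0.889 to 0.972 and the input arrays at 0.972 to 0.994. The array of experiment 3 correlated with input at only 0.722 to 0.743, against 0.873 to 0.896 for that of experiment 4. The median SD of a probe was 0.38 log2 units in AUF1 and 0.21 in input. All pulldown arrays carry array numbers 1 to 32 and all input arrays 33 to 47, so a difference between the array series cannot be told apart from one between pulldown and input. Levels below are background-corrected, quantile-normalized log2 intensities, which hold no information on the total RNA recovered. In such bulk RNA, fewer cells of a kind and less RNA per cell cannot be told apart.

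Similar numbers of probes were called higher and lower in the AUF1 pulldown than in day 6 input under quantile normalization. Of 14005 probes tested with limma at a Benjamini-Hochberg adjusted p under 0.05, 3376 (24.1%) were higher and 3308 (23.6%) lower in AUF1, 6684 in all (47.7%). Scaling arrays by their medians instead of by quantiles moved the median of all probes to -0.20 and gave 1259 higher and 3752 lower. Those at least 2-fold apart numbered 1946 higher and 2142 lower, and at least 4-fold apart 354 higher and 747 lower. The difference had a median of 0.06 log2 units, with 80% of the probes between -1.46 and 1.23 (the 10th and 90th percentiles). In 6002 probes (42.9%) the 4 AUF1 and 5 input arrays did not overlap, with all AUF1 arrays above in 2926 and below in 3076. Without the AUF1 arrays of experiments 2 and 3, 5063 probes were called.

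Most of these differences were also present in the control pulldown. In a fit that held the AUF1, IgG and input arrays of days 0 and 6 together (14632 probes tested), limma called 6403 probes (43.8%) between AUF1 and input at an adjusted p under 0.05, and 6091 (41.6%) between IgG and the same 5 input arrays. Of these, 5400 were called in the same direction by both, which is 84.3% of the AUF1 calls and 88.7% of the IgG calls, 2650 higher and 2750 lower. None was called in opposite directions. Both contrasts use the same input arrays, so part of this overlap comes from their shared error. For the 1003 probes called for AUF1 alone, the IgG difference had the same sign in 988.

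The direct contrast of AUF1 against IgG on day 6 called no probe with limma (0 of 14632, 0%; the smallest adjusted p was 1). At an unadjusted p under 0.05 there were 407 probes (2.78%). This contrast did not pair AUF1 and IgG arrays by experiment number. A block by that number, which also covered the input arrays, called 0 probes. The median absolute difference between the antibodies was 0.15 log2 units over all probes tested and 0.27 over those called for AUF1 alone. A difference above 1 log2 unit was measured in 49 probes. Weighting arrays by quality called 80 probes, 10 higher and 70 lower in AUF1. A lack of calls does not show that the antibodies gave equal levels. Each difference from input given below is read only as one between a bead pulldown and input, and IgG values are given for each set of named probes.

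The 5 highest and 5 lowest probes, among those called and with no overlap between the groups, show the size of these differences. ILMN_2789692 stood at 8.83, 9.37, 10.00 and 8.56 in the AUF1 arrays of experiments 1 to 4, against 4.82, 4.80, 5.01, 4.68 and 4.68 in input. Every AUF1 array lay more than 3 log2 units above every input array, and the difference was 4.39 ± 0.27 (SE; limma adjusted p = 1.07e-09). On day 0 the same probe differed by 1.17, and on day 6 IgG was 3.79 above input.

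ILMN_2675833 had 9.91, 9.46, 9.20 and 8.69 in AUF1 and 4.73, 5.20, 5.16, 4.90 and 4.82 in input. Its difference was 4.35 ± 0.31 (limma adjusted p = 5.56e-09), with IgG 4.08 above input. In input this probe fell by 3.01 log2 units between days 0 and 3, and its AUF1 mean was 9.32 on day 6 and 9.52 on day 0. The pulldown thus held it at nearly one level on both days while input differed. ILMN_2916035 was similar, with 11.10, 11.29, 9.86 and 10.07 in AUF1 against 6.99, 7.10, 6.38, 6.55 and 6.21 in input, and its input fell by 2.46 between days 0 and 3. The remaining pair, ILMN_1254630 and ILMN_2440530, were 3.99 and 3.98 above input, and both were already called higher in AUF1 on day 0, by 2.15 and 2.10. Over these 5 probes IgG lay 3.41 to 4.08 above input.

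Each of the 5 lowest probes was bright in input and near background on at least 1 AUF1 array. For scale, the probes detected on none of the 9 arrays had a median level of 4.36 in AUF1 and 4.34 in input. ILMN_2918479 stood at 6.87, 7.72, 4.81 and 8.54 in AUF1, against 12.43, 12.72, 13.60, 12.75 and 12.98 in input. The groups lay almost 4 log2 units apart at their nearest arrays, and the difference was -5.91 ± 0.72 (limma adjusted p = 2.48e-06), with IgG at -5.73. It was detected on 3 of the 4 AUF1 arrays, the exception being experiment 3. The difference was -6.59 on day 0, so this probe was low in the pulldown on both days. Where AUF1 arrays did not detect a probe, as here, the fitted difference rests in part on values below detection and is not exact.

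ILMN_2694960 was likewise low on both days, at -5.55 on day 6 and -5.65 on day 0, with 2 of 4 AUF1 arrays detecting it. ILMN_1232099 and ILMN_1241924 differed by -5.29 and -5.24, and their AUF1 arrays spread from 4.72 to 8.82 and from 4.42 to 9.05, with experiment 3 the lowest in both. ILMN_2760318 had 5.49, 4.51, 6.67 and 4.76 in AUF1, against 10.30, 10.51, 11.11, 10.57 and 10.11 in input, a difference of -5.16 ± 0.48 (limma adjusted p = 1.23e-07). In input these last 3 probes had gained 1.58, 1.74 and 4.58 log2 units between days 0 and 3, and for ILMN_2760318 AUF1 stood at 5.36 on day 6 and 5.69 on day 0. Over the 5 lowest probes the IgG difference was -5.73 to -4.87.

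The side of the difference went with the earlier change of the RNA in the cell. To set this on a contrast of other arrays than those of the day 6 comparison, probes were classed by input on day 3 against day 0. There, 1921 of 13750 (14.0%) were called at an adjusted p under 0.05 and at least 2-fold apart, 977 up and 944 down. The day 6 input arrays entered only the normalization, the detection filter and the estimate of spread in that fit. Of the 977 up probes, 611 (62.5%) were called lower and 44 (4.50%) higher in the day 6 AUF1 pulldown, against 23.6% and 24.1% of all probes. Of the 944 down probes, 493 (52.2%) were called higher and 65 (6.89%) lower. With arrays scaled by their medians, 259 of them were called higher and their median was 0.35. The median difference was -1.12 (quartiles -1.95 and -0.35) in the up class, 0.76 (0.07 and 1.54) in the down class and 0.05 in the 11560 other probes. Without experiments 2 and 3 the counts were 546 of the up class lower and 457 of the down class higher, with medians of -1.05 and 0.83.

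Each AUF1 array showed both shifts. Against mean input, the up class had a median difference of -1.24, -1.31, -0.95 and -0.89 on the arrays of experiments 1 to 4, and the down class 0.94, 0.94, 0.61 and 0.69. Experiments 1 and 2 were farther from input than experiments 3 and 4 in both classes. Read against the input array or arrays of its own number, the AUF1 array lay below input in 86.9%, 85.3%, 74.8% and 81.9% of the up probes, where between 48.2% and 50.2% of all probes were below. The IgG medians of the same classes were -1.02 and 0.74. The groups did not overlap, with AUF1 below, in 545 up probes (55.8%, against 3076 of all 14005 probes), and with AUF1 above in 440 down probes (46.6%, against 2926 of all).

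The difference was graded with the size of the earlier change. Among the 133 probes whose input had gained 3 or more log2 units by day 3, the median day 6 difference was -1.75, with 69.2% called lower and 0.752% called higher. It was -1.41 for gains of 2 to 3 units, -0.92 for 1 to 2 and -0.47 for 0.5 to 1. The 8490 probes that moved by less than 0.5 either way had a median of 0.06, with 22.1% called higher and 21.2% lower. On the other side it was 0.38 for losses of 0.5 to 1, 0.66 for 1 to 2 and 1.10 for 2 to 3. The 40 probes that had lost over 3 units had a median of 1.81, with 77.5% called higher and none called lower. The IgG median was -1.53 at the top of this scale and 1.79 at its bottom. Classes made from day 6 against day 0 input, which share the day 6 input arrays with the difference, gave medians of -1.15 in 1151 up probes and 0.78 in 1145 down probes.

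**Figure D2:**
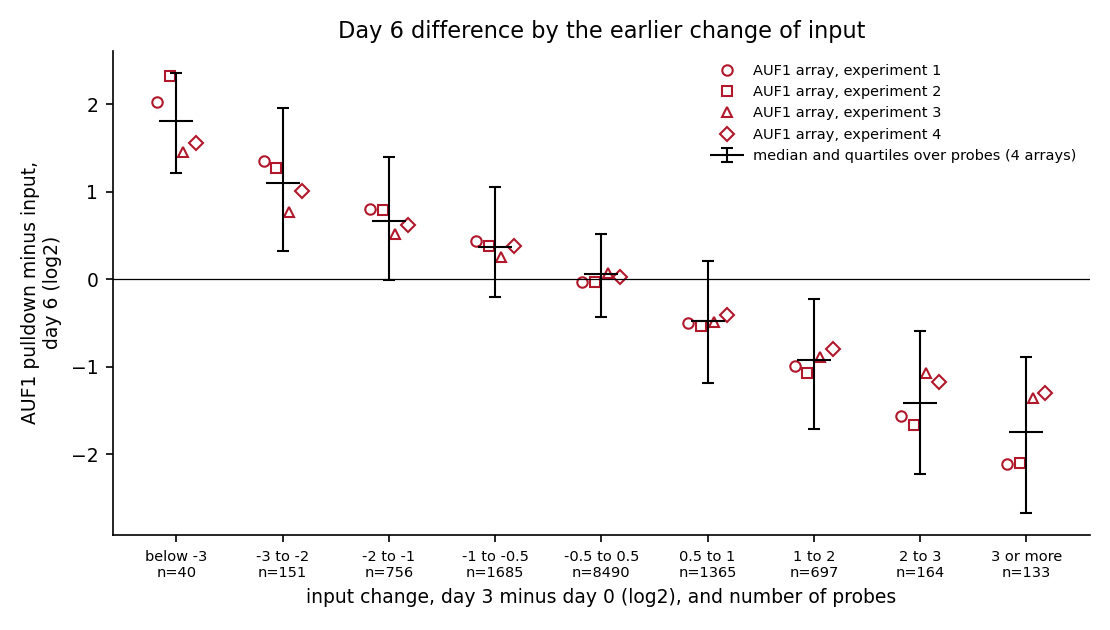
Day 6 difference, AUF1 pulldown minus input (log2), in 9 bins of the input change between days 0 and 3 (log2). Black marks give the median over the probes and their quartiles, and red symbols the median on each AUF1 array against mean input. The medians run from 1.81 in the bin of the largest losses down to -1.75 in the bin of the largest gains, on the same side on all 4 arrays outside the middle bin.

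Set side by side over the days, the pulldown moved in the direction of input but by less. In one normalization of 31 arrays, the median level of the up class was 6.95 ± 0.21 in AUF1 on day 6 (SD, n = 4) and 6.27 ± 0.01 in AUF1 on day 0 (SD, n = 4). In input it was 5.93 ± 0.30 on day 0, 8.03 ± 0.14 on day 3 and 8.16 ± 0.05 on day 6 (SD, n = 5 each). The down class had 7.15 ± 0.22 in AUF1 on day 6 and 7.46 ± 0.11 in AUF1 on day 0, against 7.83 ± 0.12, 6.19 ± 0.13 and 6.11 ± 0.11 in input on days 0, 3 and 6. IgG followed AUF1, with 6.996 ± 0.15 and 7.12 ± 0.16 on day 6 in the up and down classes (SD, n = 4).

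**Figure D3:**
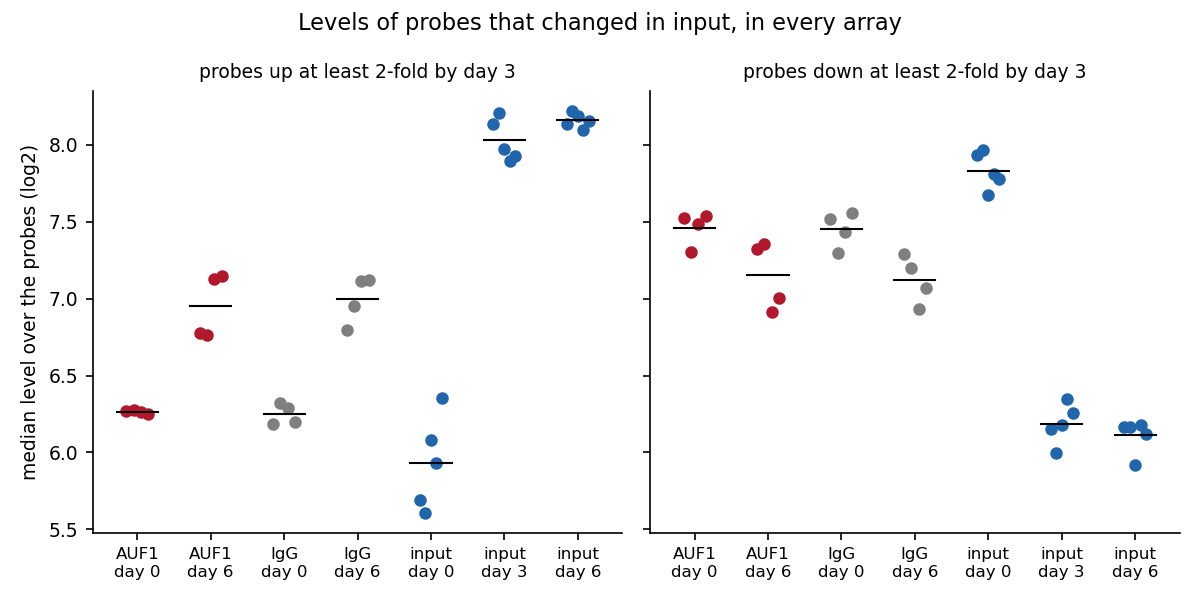
Median log2 level over the 977 probes up (left) and the 944 probes down (right) at least 2-fold in input on day 3, on each array of the AUF1, IgG and input groups, with bars at group means. On day 6 the AUF1 arrays lie between 6.76 and 7.15 in the up class, below the input arrays at 8.10 to 8.22, and between 6.92 and 7.36 in the down class, above the input arrays at 5.92 to 6.18.

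Over probes, the median of AUF1 on day 6 minus AUF1 on day 0 was 0.46 in the up class and -0.26 in the down class, where input on day 6 minus input on day 0 had medians of 1.63 and -1.44. The input values share the day 0 arrays with the classes, and the AUF1 values share none. Across all 14005 probes, AUF1 change and input change correlated at 0.401, given as a description, since probes of a common array are not independent. Over all probes tested, limma called 1932 probes between AUF1 on day 6 and AUF1 on day 0, and 4168 between the input arrays of these days. AUF1 had 4 arrays per day and input 5, and the median SD of a probe on day 6 was 0.38 in AUF1 and 0.21 in input. The counts therefore do not compare the sizes of the changes. By whole profile, the AUF1 arrays of experiments 1 and 2 correlated best with mean input of day 0 (0.868 and 0.856), and those of experiments 3 and 4 with day 3 (0.748 and 0.904, against 0.740 and 0.896 with day 6). No day 6 AUF1 array was nearest to its own day's input. Day 6 IgG arrays ran alike, nearest to day 0 in experiment 1 and to day 3 in experiments 2, 3 and 4.

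Once the 5 lowest probes above are set aside, the 3 lowest of the up class were bright in input and near background on the beads. ILMN_2924619, which had gained 5.03 in input by day 3, stood at 4.91, 4.33, 5.57 and 5.52 in AUF1 and at 9.72, 9.98, 10.72, 9.96 and 9.76 in input. The difference was -4.94 ± 0.31 (limma adjusted p = 1.61e-09), and the IgG difference -4.99. All 4 AUF1 arrays lay more than 4 log2 units below input.

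ILMN_3137570 and ILMN_2758878 differed by -4.77 and -4.58, detected on 1 and 2 of the 4 AUF1 arrays and on all 5 input arrays, so these sizes rest largely on AUF1 values below detection. The IgG differences of these 3 probes were -4.99 to -4.49. The exceptions of the up class ran the other way. ILMN_2611180 stood at 8.84, 8.60, 9.67 and 8.99 in AUF1 and at 5.43, 5.83, 5.95, 6.08 and 5.89 in input, a difference of 3.19 ± 0.25 (limma adjusted p = 1.51e-08), with IgG 2.92 above input. ILMN_3106592 was 2.75 higher in AUF1, with its 4 AUF1 arrays between 10.31 and 10.47 and its input between 6.91 and 8.47. It was 3.83 higher on day 0 too, and IgG stood 3.15 above input on day 6.

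ILMN_2603647 gained more in the pulldown than in the cell. It had 9.23, 9.15, 10.20 and 9.39 in AUF1 on day 6, against 6.77, 6.37, 6.97, 6.96 and 7.01 in input, a difference of 2.67 ± 0.29 (limma adjusted p = 8.38e-07). On day 0 the means were 5.04 in AUF1 and 5.13 in input, a difference that was not called. On that day 2 of 4 AUF1 arrays and 4 of 5 input arrays detected it, so the size of the gain is not exact. Its IgG arrays of day 6 lay between 7.70 and 10.45, and AUF1 minus IgG was 0.34 (unadjusted p = 0.45).

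Among probes down in input that were not among the 5 highest above, ILMN_3148543 stood at 9.51, 9.77, 9.61 and 8.95 in AUF1 and at 6.22, 5.42, 5.22, 5.87 and 5.25 in input, a difference of 3.87 ± 0.29 (limma adjusted p = 1.02e-08), with IgG 3.63 above input. ILMN_2669793 was 3.71 ± 0.38 higher and ILMN_2860480 3.62 ± 0.20 higher, with IgG 3.27 above input in both. The rule for naming required groups without overlap, which 42.9% of all probes tested had. The 3 lowest of this class were lower in AUF1 on day 0 as well. ILMN_2639036 was at 4.87, 4.52, 4.45 and 5.06 in AUF1, against 7.97, 8.11, 8.97, 8.16 and 7.92 in input, with -3.50 on day 6 and -4.93 on day 0, when 2 and 1 of 4 AUF1 arrays detected it. The IgG differences of these 3 were -3.26 to -2.69.

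ILMN_2957614 was detected on 0 of 4 AUF1 and 5 of 5 input arrays, so only a bound can be given: it was at least 5.10-fold lower in AUF1 (limma adjusted p = 8.86e-08), with measured means of 4.32 in AUF1 and 7.36 in input. That bound sets mean input against the lowest level that counted as detected on each AUF1 array. ILMN_2678828 rested partly on 1 array. It stood at 8.08, 7.70, 4.34 and 8.62 in AUF1 and between 9.99 and 10.53 in input, with means of 7.18 ± 1.93 (SD) in AUF1 and 10.19 ± 0.21 in input (limma adjusted p = 0.00118), and with the detected share of each array as a covariate the adjusted p was 0.0502.

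**Figure D4:**
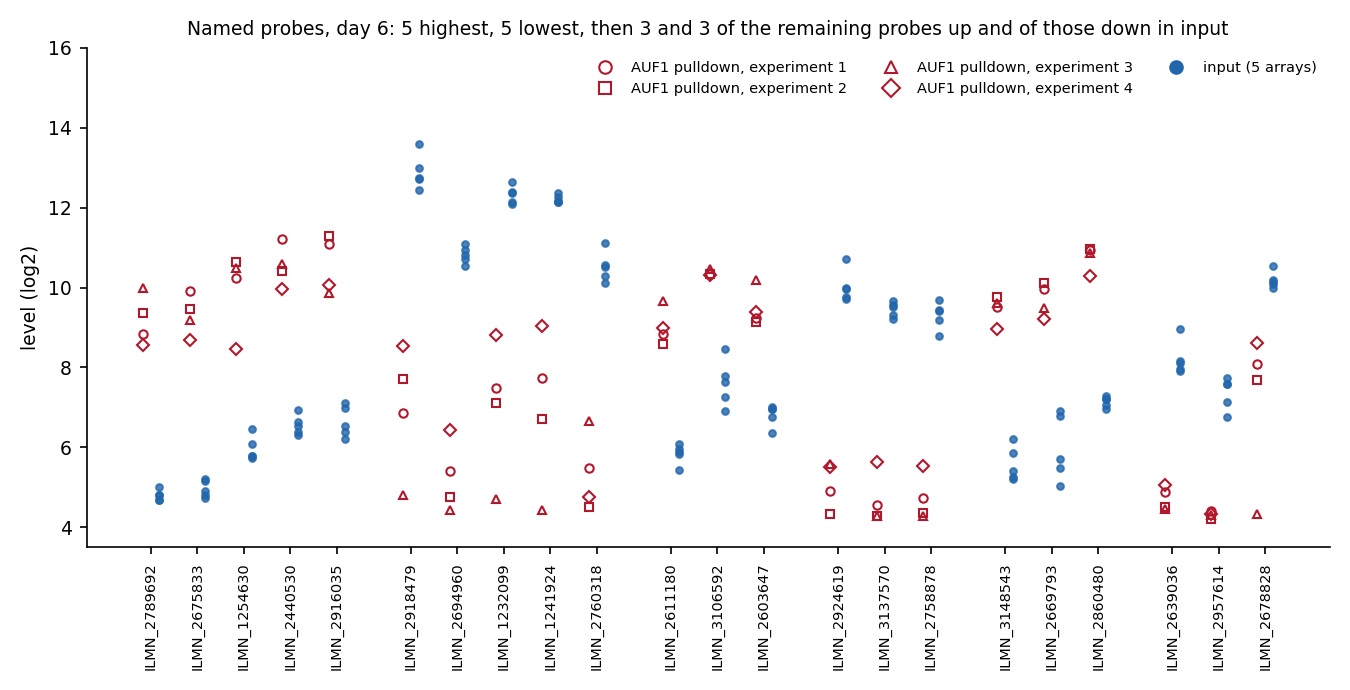
Log2 levels of named probes on the 4 AUF1 pulldown arrays (red, symbol by experiment) and the 5 input arrays (blue) of day 6. From left to right are the 5 highest and 5 lowest differences, then, of the probes not among these 10, the 3 highest and 3 lowest of those up in input by day 3 and the 3 highest and 3 lowest of those down. The rule that chose these probes required groups without overlap. The AUF1 array of experiment 3 sits lowest in several of the bright probes that were lower in AUF1.

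The difference between AUF1 and input itself changed with differentiation. On day 0, 6438 of the 14005 probes were called, 3134 higher (22.4%) and 3304 lower (23.6%) in AUF1, or 499 and 5367 with arrays scaled by their medians. The test of the change, day 6 difference minus day 0 difference, called 1170 probes higher (8.35%) and 1086 lower (7.75%), on arrays of which none is shared between the days. Median scaling gave 948 and 443. Of the 1170, 484 were of the down class and 8 of the up class. Of the 1086, 520 were of the up class and 3 of the down class. The day 0 input arrays enter both this change and the classes, so these counts are a description.

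Most probes called on both days kept their side: 1770 were higher and 2013 lower in AUF1 on both. A further 144 were called higher on day 6 and lower on day 0, of which 89 were of the down class and none of the up class. Another 96 were called lower on day 6 and higher on day 0, of which 62 were of the up class and none of the down class. Over all 14005 probes tested, 944 were of the down class and 977 of the up class. The day 0 input arrays enter both the classes and the day 0 difference, so these counts too are a description. All of these 144 and 96 probes passed the test of the change. Calls on opposite sides in the same fit make that nearly certain, so it adds no support.

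The largest gain of the difference was in ILMN_2715802, with 11.39, 11.32, 10.50 and 10.61 in AUF1 on day 6 against 7.75, 7.82, 7.29, 7.33 and 7.75 in input. AUF1 minus input was 3.37 on day 6 and -1.08 on day 0, a change of 4.44 (limma adjusted p = 4.1e-07). The AUF1 mean was 10.96 on day 6 and 10.91 on day 0, while the input mean was 7.59 on day 6 and 11.98 on day 0. ILMN_2669793 (4.19) and ILMN_2980661 (4.04) followed, the second with AUF1 means of 10.63 on day 6 and 9.09 on day 0 against input means of 8.05 on day 6 and 10.55 on day 0. IgG lay 2.24 to 3.34 above input on day 6 in these 3 probes.

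The largest drop was in ILMN_2977331, whose input mean was 14.04 ± 0.16 (SD) on day 6 and 7.53 ± 2.40 on day 0. On day 0, 4 of 5 input arrays detected it. Its AUF1 arrays of day 6 stood at 11.99, 10.88, 9.12 and 12.05, against 13.85 to 14.21 in input, and the difference was -3.02 on day 6 and 2.86 on day 0 (change -5.88, limma adjusted p = 0.0029). ILMN_2882658 changed by -5.60, with an AUF1 minus input difference of 4.52 on day 0, when 4 of 5 input arrays detected it. On day 6 it stood at 12.56, 11.81, 12.68 and 12.66 in AUF1 and 13.36 to 13.64 in input, a difference of -1.09 that did not pass the test (limma adjusted p = 0.184). The day 6 arrays of AUF1 and input did not overlap. The fit pooled the spread of a probe over its groups, and day 0 input of this probe had an SD of 2.03, against 0.11 on day 6. ILMN_1235230 changed by -5.24, with -3.56 on day 6 and 1.68 on day 0. Its input had an SD of 1.35 on day 0 and 0.30 on day 6. The sizes of all 3 drops thus rest on day 0 input arrays that differed widely. The day 6 IgG differences of these 3 probes were -3.57 to -0.77.

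The medians lay closer together over classes of input abundance than over bins of input change. The abundance classes are of equal size, whereas the end bins of change held only 40 and 133 probes. The 2 spreads therefore do not rank abundance against change. Probes were cut into 5 classes of 2801 by their mean level on the day 3 input arrays, and since signal depends on the probe as well as the RNA, the classes rank signals. In order of increasing input level, the median day 6 difference was 0.17, 0.11, 0.05, -0.09 and -0.22. The sizes at the ends depended on the setting, from 0.041 to 0.43 in the lowest class and from -0.65 with median scaling to -0.073 with scaling by mean and SD in the highest. The share called lower in AUF1 was 3.07%, 18.5%, 28.3%, 31.7% and 36.5%, and the share called higher was 16.4%, 24.1%, 31.2%, 27.5% and 21.3%. In the lowest class the input level leaves almost no room for a lower value. Normalization gave all arrays one distribution, and AUF1 arrays correlated less with input than input arrays did with each other. Probes ranked by input then tend to lie lower in AUF1 at the top and higher at the bottom. Part of this trend is therefore built in, and how much was not tested. Classes by day 6 input, which share arrays with the difference, gave 0.19, 0.11, 0.02, -0.10 and -0.27.

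Within a class of abundance, the classes of input change still lay apart. Up probes had a median difference of -0.91, -1.08, -1.24 and -1.12 in abundance classes 2 to 5 (n = 43, 217, 317 and 400), where probes of the same abundance that were in neither class had 0.09, 0.05, -0.02 and -0.14. Down probes had 0.43, 0.90, 0.96, 0.88 and 0.50 in classes 1 to 5 (n = 128, 218, 267, 212 and 119). No up probe fell in the lowest abundance class.

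**Figure D5:**
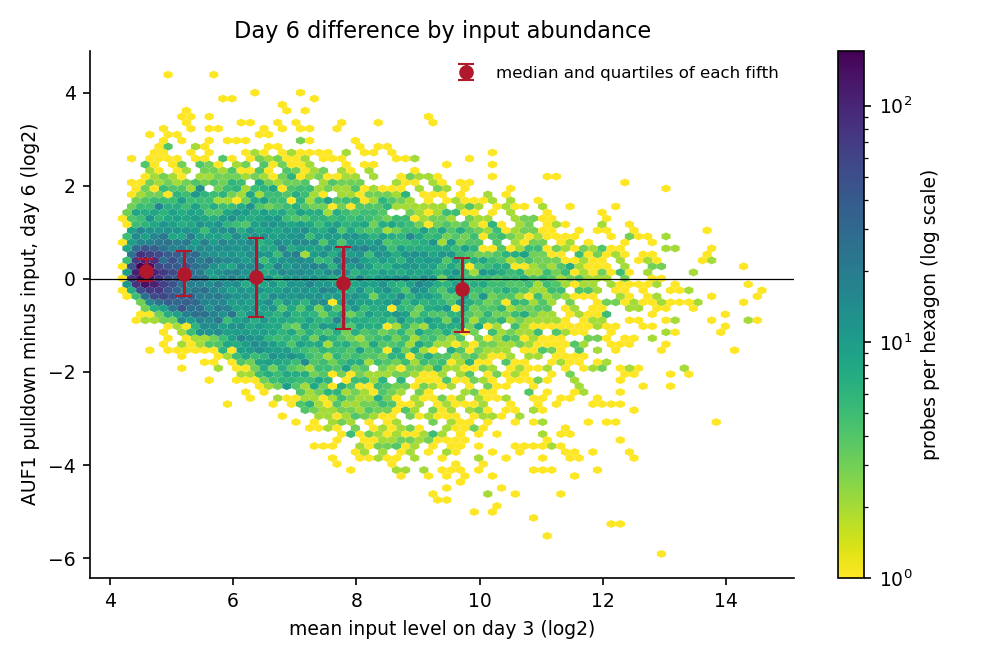
Day 6 difference, AUF1 pulldown minus input (log2), against mean input level on day 3 (log2), with shading by the number of probes per hexagon on a log scale. Red points and bars give the median and quartiles of each abundance class, with medians of 0.17, 0.11, 0.05, -0.09 and -0.22. The spread below 0 widens with input level, up to differences near -6.

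Among remaining probes of the most abundant class, ILMN_2689333 had an input difference of 0.00 log2 units between days 0 and 3. It stood at 12.46, 12.57, 12.91 and 12.13 in AUF1, against 9.85, 9.78, 9.71, 9.95 and 9.73 in input, a difference of 2.71 ± 0.20 (limma adjusted p = 7.85e-09), with IgG 2.15 above input. ILMN_1221503 and ILMN_2601471 were higher by 3.51 and 3.41 with input changes of -2.60 and -2.72 by day 3. In both, the input arrays of experiments 1 and 2 were above 9 and the other 3 between 7.54 and 8.08, all below the AUF1 arrays. At the other end, ILMN_2589477 stood at 4.49, 5.42, 4.58 and 5.04 in AUF1 and at 9.76, 9.93, 9.88, 10.02 and 9.79 in input (-4.99 ± 0.26, limma adjusted p = 1.38e-10). It was -4.19 on day 0 too. ILMN_3084087 and ILMN_2600348 differed by -4.83 and -4.71 on day 6 and by -4.28 and -4.36 on day 0. IgG lay 2.15 to 2.89 above input in the 3 high probes and differed by -4.77 to -4.34 in the 3 low ones.

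Detection calls need no normalization, whereas the classes and levels set beside them here do. Of 10365 probes detected on all 5 input arrays of day 6, 7037 were detected on all 4 AUF1 arrays and 531 on none. Of the 531, 299 were detected on no IgG array and 2 on all of them. They were dim, with a median level of 4.44 in AUF1 and 5.44 in input, and 63 (11.9%) were of the up class and 8 (1.51%) of the down class. Of the 7037 probes detected on all 9 arrays, 9.05% were of the up class and 8.04% of the down class. These 7037 had a median input level of 7.68, so the shares are not matched for abundance. The opposite case, on all 4 AUF1 arrays and no input array, held 35 probes, of which 30 were detected on all 4 IgG arrays, 11 on all 5 day 0 input arrays and 2 on none of these. Of those 35, 4 were of the down class and none of the up class, which hold 3.67% and 3.80% of all probes. The AUF1 arrays of experiments 1, 2, 3 and 4 missed 9.28%, 21.3%, 27.6% and 7.37% of the 10365 probes.

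Of the 33 distinct probes named, 32 were called between IgG and input in the same direction as for AUF1, and none was called between AUF1 and IgG. Over all 14632 probes tested, 41.6% were called between IgG and input in either direction, and 0% between AUF1 and IgG. The named probes were chosen by large differences from the same input arrays, so the count of 32 is a description. Of the named probes, ILMN_2789692 was closest to a call between AUF1 and IgG, with AUF1 0.68 above IgG (limma unadjusted p = 0.052). Its IgG arrays lay between 7.89 and 9.50.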

How the data were processed

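Biotin-labelled RNA of C2C12 cells was measured on Illumina mouse arrays. The authors deposited a table of signal intensity with a detection p-value per probe and array, not normalized per the values. Per the submitters' processing notes GenomeStudio 1.6.0 was used, and other steps are not given in the sources used here. Intensities were corrected with limma 3.58.1 in R 4.3.3 (neqc: normexp, control moments inferred from the detection p-values, offset 16, then quantile normalization). Probes with detection p under 0.05 on at least 3 arrays were tested. The fit held AUF1 and input of days 0 and 6 (18 arrays), with 1 mean per group, Benjamini-Hochberg adjustment and calls at adjusted p under 0.05. IgG was read in a fit of 26 arrays, and input classes in one of 15 arrays. No read depth exists for arrays, and their number limits the precision. No 2 columns were identical. The code was tested on simulated data.

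Named probes were, among those called and without overlap between groups, the 5 highest and 5 lowest, then, among the remaining probes, the 3 highest and 3 lowest of the up, down and most abundant classes, and the 3 highest and 3 lowest changes from day 0. The comparison, classes and this rule were chosen with earlier results of these data known. Gene and marker lists could not be used because 0 of 25697 probes could be paired with a gene here. No pairing of AUF1 and input arrays by experiment number was seen. Deviations of arrays of the same number correlated at -0.021 to 0.074, and those of different numbers at -0.14 to 0.093. So few arrays cannot show whether the numbers mark shared experiments. Whether experiment numbers pair AUF1 and IgG arrays was not tested. Alternatives covered scaling, background, filters, moderation, array weights, covariates, an experiment block and left-out arrays.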

Additional observations from a re-analysis of the deposited data

Results flagged for a closer look

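In 4 of 70 groups of values tested, 1 array lay far from the rest of its group, where chance gives about 1 in 20. An input array of experiment 3 stood at 10.72 for ILMN_2924619 (the others 9.72 to 9.98) and at 8.97 for ILMN_2639036 (the others 7.92 to 8.16). An AUF1 array stood at 10.29 for ILMN_2860480, experiment 4, where the others were at 10.88 to 10.98. For ILMN_2882658 the AUF1 array of experiment 2 stood at 11.81, where the others were at 12.56 to 12.68.

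The difference between AUF1 and input was itself different on day 6 and day 0 in 2256 probes by limma's test of the change, 24 named ones among them. The change, day 6 minus day 0, was positive for ILMN_2715802 (4.44), ILMN_2669793 (4.19), ILMN_2980661 (4.04), ILMN_2601471 (3.77), ILMN_1221503 (3.64), ILMN_2675833 (3.32), ILMN_2789692 (3.22), ILMN_2916035 (3.06) and ILMN_2603647 (2.77). It was smaller and positive for ILMN_3148543 (2.15), ILMN_2860480 (2.08), ILMN_2440530 (1.88), ILMN_2611180 (1.87), ILMN_2957614 (1.55), ILMN_2689333 (1.52) and ILMN_2639036 (1.43). It was negative for ILMN_2977331 (-5.88), ILMN_2882658 (-5.60), ILMN_1235230 (-5.24), ILMN_2760318 (-4.76), ILMN_2924619 (-4.62), ILMN_1241924 (-2.79), ILMN_3137570 (-2.63) and ILMN_2758878 (-1.97). Some of these changes rest on AUF1 or input values below detection and are not exact. ILMN_2957614 was detected on 0 of 4 AUF1 arrays on day 6 and 1 of 4 on day 0, and ILMN_2639036 on 2 and 1. ILMN_2924619, ILMN_3137570 and ILMN_2758878 were detected on 0 of 4 AUF1 arrays on day 0, and ILMN_2924619 on 2 of 5 input arrays of that day. Also on day 0, ILMN_2603647 was detected on 2 of 4 AUF1 and 4 of 5 input arrays. ILMN_2977331 and ILMN_2882658 were each detected on 4 of 5 input arrays of day 0.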

How the results depend on the processing

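No class median, named probe or difference in detected share or mean signal reversed under the alternatives run for it. Of 708 values of the named probes under alternatives, 707 kept direction and call, the exception being ILMN_2678828 with the detected share as covariate (-1.65, limma adjusted p = 0.0502). The day 6 count ranged from 5011 to 7361 over all settings and from 6054 to 6772 with 1 array left out. Median scaling moved the median of all probes to -0.20 and split the day 6 calls into 1259 higher and 3752 lower. With that shift subtracted, 6683 of the 6684 main calls kept their sign. The subtraction takes out what the scaling moved, so this count is no separate support. Median scaling gave 1391 changes from day 0 (948 higher and 443 lower) and 259 down probes called higher. Its medians were -1.47 in the up and 0.35 in the down class, and -0.65 and 0.083 in the most and least abundant classes. On day 0 it gave 499 higher and 5367 lower. Scaling by mean and SD gave 0.59 in the down class and -0.073 in the most abundant one. Without background correction, the up, down and least abundant classes had -0.71, 0.47 and 0.074. The least abundant class had 0.43 with detection on every array of a group, 0.27 with day 6 arrays alone, 0.041 with the detected share as covariate and 0.083 with experiments 2 and 3 left out of AUF1. The covariate gave 0.95 in the down class. Array weights gave 3989 changes, 9424 IgG calls and 80 between AUF1 and IgG. Leaving out 1 array gave 1802 to 2751 changes, 0 to 1 calls between AUF1 and IgG, and a difference in detected share of -9.01 to -4.95 points. That share no longer passed (exact p = 0.0571) without the input array 35, 38, 41 or 44. The cause of these shifts was not tested. A replicate block by experiment number uses numbers by which no pairing of AUF1 and input arrays was seen. It gave limma calls for 6796 probes on day 6, 2193 changes, 6350 on day 0, 6663 for IgG and 0 between AUF1 and IgG. This block also covered the input arrays, and pairing of AUF1 with IgG arrays alone was not tested. Alternatives for the classes, the one lacking experiments 2 and 3, and day 0 arrays left out of the change were chosen after seeing the data. Dim probes have little room to lie below input.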
